A study of Mus musculus with 4 samples.

Results

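The T cell receptor complex and its coreceptors were followed in tumor associated macrophages (TAMs) through 10 genes, namely Cd3d, Cd3e, Cd3g and Cd247, the receptor constant genes Trbc1 and Trbc2, the coreceptor genes Cd8a, Cd8b1 and Cd4, and the kinase gene Lck. The members were the entries of the count table whose identifiers carry these symbols in GENCODE M21, and all 10 were found among the 54146 genes listed and all 10 were among the 14688 genes with enough counts to be tested. The study asked how oral propranolol, a nonselective beta blocker, alters TAMs of MCA205 tumors, a fibrosarcoma cell line grown under the skin of the flank of female mice aged 8 to 16 weeks. The hosts were immune competent C57BL/6 mice. Both groups carried the same tumor, and 2 libraries came from mice labelled vehicle while 2 came from mice that drank water with propranolol at 0.5 g/L from the day of inoculation. CD45+ cells were enriched with magnetic beads, live CD11b+ F4/80+ cells were sorted, and sequencing was done on poly-adenylated RNA from them. The study calls the libraries biological replicates, and whether each came from 1 tumor or from several is not given in the sources used here.

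T cells recognise antigen through a receptor of paired variable chains that cannot signal alone. The chains encoded by Cd3d, Cd3e, Cd3g and Cd247 carry the signalling motifs, and the kinase Lck phosphorylates them. The coreceptors mark the lineages of T cells. CD8 binds MHC class I on the target cell, CD4 binds MHC class II, and both bring Lck to the receptor. The genes of the gamma, delta and epsilon chains and of the receptor are markers of T cells and not of macrophages. Cd247 and Lck are also transcribed by natural killer (NK) cells, Cd8a by some dendritic cells and Cd4 by some dendritic cells and macrophages.

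The sorted cells carried the transcripts of their label. Levels are stated in CPM, which scales a gene to the normalized size of its library, or in TPM, which also accounts for gene length. The 12 macrophage markers summed to 23383 and 22389 CPM in the vehicle libraries and to 29398 and 26653 CPM in the propranolol libraries, with Lyz2 as the most abundant. The 10 T cell receptor complex and coreceptor genes summed to 264 and 311 CPM with vehicle and to 139 and 74.9 CPM with propranolol. Per length, they summed to 416 ± 52.9 TPM (SD, n = 2) with vehicle and 123 ± 51.6 TPM (SD, n = 2) with propranolol, beside 48958 ± 306 and 49240 ± 2882 TPM for the macrophage markers. The T cell transcripts were thus a small component of RNA in each of the 4 libraries. In bulk RNA, fewer cells of a type and less RNA per cell cannot be told apart. Total counts were 13798249 and 23018142 for vehicle replicates 1 and 2, and 39818103 and 16424081 for propranolol replicates 1 and 2.

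Transcripts of the receptor complex, of CD8 and of Lck were lower in the sorted samples of propranolol treated mice, and those of CD4 were not. Which of the sorted cells held these transcripts was not tested. In the quasi-likelihood test of edgeR, 9 of the 10 genes were lower in the propranolol libraries and 0 were higher. A gene counted as changed if it moved by over 1.5-fold and its p, adjusted over all tested genes after Benjamini-Hochberg, stayed below 0.05. Across all tested genes, 27.8% changed, 15.6% being lower and 12.2% higher. The median log2 fold change of the 10 genes was -1.27, and that of all tested genes was -0.02. For the same 9 genes, both propranolol libraries were below both vehicle libraries, as was the case for 36.9% of all tested genes. The log2 fold changes of the 9 genes ran from -2.15 to -1.09, and their adjusted p-values from 0.000428 to 0.0233. The libraries of a group were not alike. In all 9 genes, propranolol replicate 2 was lower than propranolol replicate 1, by 1.72-fold to 2.55-fold, while the ratio of vehicle replicate 2 to vehicle replicate 1 ran from 0.972 to 1.46. Leaving out propranolol replicate 1 gave a median log2 fold change of -1.96 over the 10 genes, and leaving out propranolol replicate 2 gave -0.89.

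**Figure D1:**
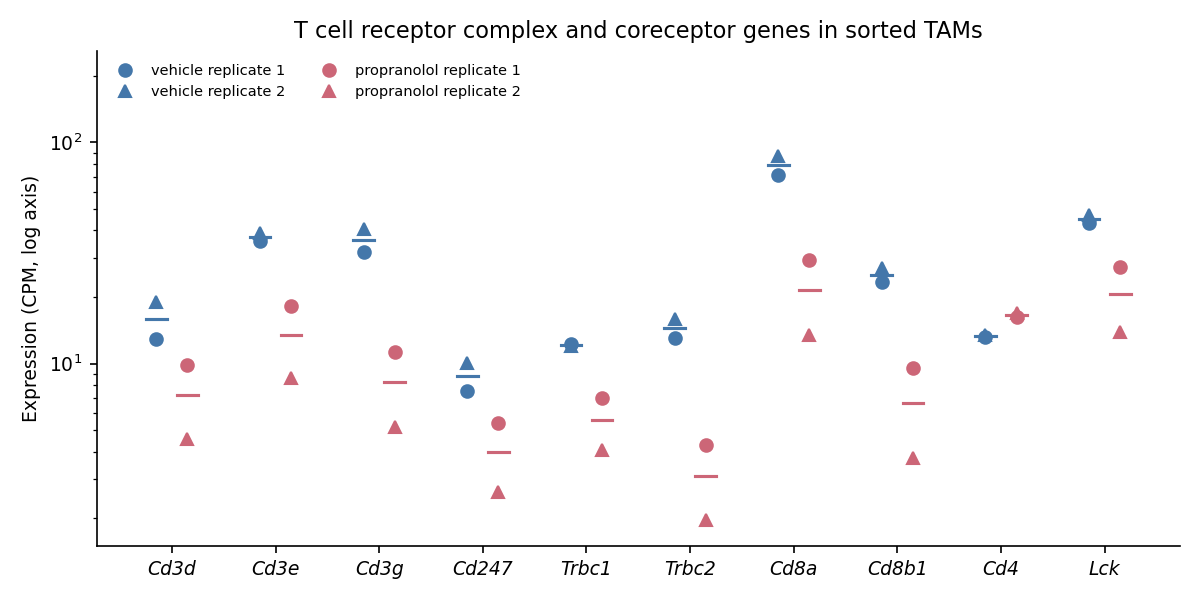
Expression of the 10 genes in CPM on a log axis, with a circle for replicate 1, a triangle for replicate 2 and a bar for the group mean. Both propranolol libraries lie below both vehicle libraries for 9 genes, with propranolol replicate 2 the lowest, and Cd4 is the exception.

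The CD3 chains pair as gamma with epsilon and delta with epsilon, and their genes lie side by side on chromosome 9 of GRCm38, Cd3g at chr9:44969572-44980431, Cd3d at chr9:44981786-44987339 and Cd3e at chr9:44998740-45009627. Cd3g and Cd3d point away from each other and their starts are 1355 bases apart. The promoters of the cluster are shown because all 3 neighbours were lower with propranolol. They are the RefSeq sequences on GRCm38.p6 from 250 bases before to 50 bases after the start, at chr9:44980382-44980681 on the minus strand for Cd3g, chr9:44981536-44981835 on the plus strand for Cd3d and chr9:45009562-45009861 on the minus strand for Cd3e. Capitals mark each match to the E-box CANNTG, a motif bound by E proteins, which reads the same on both strands.
Cd3g: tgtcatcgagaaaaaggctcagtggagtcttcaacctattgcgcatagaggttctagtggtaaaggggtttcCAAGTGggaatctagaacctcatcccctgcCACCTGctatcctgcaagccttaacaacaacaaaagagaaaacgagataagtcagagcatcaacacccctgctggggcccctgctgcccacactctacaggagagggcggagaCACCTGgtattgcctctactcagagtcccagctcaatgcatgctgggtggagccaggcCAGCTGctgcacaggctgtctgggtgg
Cd3d: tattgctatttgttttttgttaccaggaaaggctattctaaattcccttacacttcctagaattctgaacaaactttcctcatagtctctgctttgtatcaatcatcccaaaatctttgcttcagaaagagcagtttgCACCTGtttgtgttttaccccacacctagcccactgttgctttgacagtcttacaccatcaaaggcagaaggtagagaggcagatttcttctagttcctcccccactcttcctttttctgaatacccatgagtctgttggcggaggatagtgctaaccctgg
Cd3e: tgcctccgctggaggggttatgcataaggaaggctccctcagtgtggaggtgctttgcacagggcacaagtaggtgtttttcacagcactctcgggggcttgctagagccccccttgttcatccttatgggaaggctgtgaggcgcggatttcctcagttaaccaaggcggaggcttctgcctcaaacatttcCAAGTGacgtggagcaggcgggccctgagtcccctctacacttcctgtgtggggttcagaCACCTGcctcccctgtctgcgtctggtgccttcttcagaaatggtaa
Cd3g held 4 matches, Cd3d 1 and Cd3e 2. Of all 32851 promoters of this length in the table, 72.3% held at least 1 match, so the motif is common. A match is a description of these letters and not evidence of a bound site.

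Cd3g, the gamma chain, was measured at 32.0 and 40.5 CPM in the vehicle libraries and at 11.3 and 5.17 CPM in the propranolol libraries. Cd3e, the epsilon chain, was at 35.7 and 39.1 CPM with vehicle and at 18.3 and 8.58 CPM with propranolol. Cd3d, the delta chain, was at 12.9 and 18.9 CPM with vehicle and at 9.85 and 4.58 CPM with propranolol. The groups did not overlap for any of the 3 chains, and vehicle replicate 2 was the highest library and propranolol replicate 2 the lowest for each. By the edgeR test with Benjamini-Hochberg adjustment, the log2 fold change was -2.08 ± 0.28 (SE) for Cd3g with an adjusted p of 0.000428, -1.43 ± 0.26 for Cd3e with an adjusted p of 0.00202, and -1.10 ± 0.32 for Cd3d with an adjusted p of 0.0186. Together the 3 chains amounted to 80.6 and 98.5 CPM with vehicle and to 39.5 and 18.3 CPM with propranolol. The chains did not keep their ratio. The log2 ratio of Cd3d to Cd3g was -1.31 and -1.10 with vehicle and -0.20 and -0.17 with propranolol, which separated the groups (exact permutation p = 0.33, two-sided, the smallest possible). Cd3g is the member poorest in guanine and cytosine, and with a correction for GC content, described further below, the change of this ratio went from 1.02 to -0.04. All 3 passed the test with any library left out. Without propranolol replicate 1 their log2 fold changes ran from -2.81 (Cd3g) to -1.79 (Cd3d), and without propranolol replicate 2 from -1.65 (Cd3g) to -0.67 (Cd3d).

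Cd247, the zeta chain, which carries most of the signalling motifs of the complex, lies apart at chr1:165788681-165877277 and was the least abundant member per length. It was measured at 7.48 and 10.1 CPM with vehicle and at 5.36 and 2.62 CPM with propranolol. The groups did not overlap. For Cd247, as for Cd3d, Cd3e, Cd8b1 and Lck, vehicle replicate 1 and propranolol replicate 1 were closer to each other than the propranolol libraries were on a log scale. The log2 fold change was -1.10 ± 0.33 (SE) with an adjusted p of 0.0233 by the edgeR test. This was the highest adjusted p of the 9 genes, and the only call of the 9 that was lost without a library or with the GC correction. The log2 fold change was -0.69 with an adjusted p of 0.0835 without propranolol replicate 2 and -1.75 with an adjusted p of 0.000543 without propranolol replicate 1, and with the GC correction it was -0.68 with an adjusted p of 0.154.

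The receptor beta chain ends in 1 of 2 nearly identical constant regions. Trbc1 lies at chr6:41538218-41539881 and Trbc2 at chr6:41546730-41548352, and a T cell uses either. Over the 518 coding bases compared, they differ at 23, an identity of 95.6%, and the first 259 bases are the same in both. The stretch from coding base 361 to base 510, shown because 20 of the differences lie in it, is that of the GENCODE M21 transcripts on GRCm38, with the bases that differ in capitals.
Trbc1: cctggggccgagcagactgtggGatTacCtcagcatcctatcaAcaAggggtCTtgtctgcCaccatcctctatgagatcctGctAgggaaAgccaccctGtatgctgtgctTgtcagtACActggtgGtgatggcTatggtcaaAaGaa
Trbc2: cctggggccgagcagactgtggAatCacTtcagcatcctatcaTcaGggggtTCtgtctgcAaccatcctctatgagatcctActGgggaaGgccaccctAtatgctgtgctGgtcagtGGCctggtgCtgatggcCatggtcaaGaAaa
Since only alignments of high mapping quality were counted, fragments that lie within the identical part could not be assigned to either gene, and the values of both genes are uncertain to that extent. Trbc1 was measured at 12.3 and 12.0 CPM with vehicle and at 6.99 and 4.06 CPM with propranolol. Trbc2 was at 13.1 and 15.9 CPM with vehicle and at 4.26 and 1.96 CPM with propranolol. Both genes were lower in both propranolol libraries, and propranolol replicate 2 was the lowest library for each. The log2 fold change by the edgeR test was -1.10 ± 0.26 (SE) for Trbc1, with an adjusted p of 0.00732, and -2.15 ± 0.31 (SE) for Trbc2, with an adjusted p of 0.000593. Of the counts of both genes, Trbc1 took 48.4% (exact 95% interval 43.3 to 53.6) and 42.9% (39.2 to 46.7) in the vehicle libraries, and 62.1% (57.2 to 66.8) and 67.4% (56.8 to 76.8) in the propranolol libraries. These intervals cover counting error only. The Trbc1 share was higher in both propranolol libraries, but the change of the log2 ratio, 1.12, had an exact permutation p of 0.33 (two-sided), which is the smallest that 2 libraries against 2 can give. Without propranolol replicate 1, the log2 fold changes of Trbc1 and Trbc2 were -1.58 and -2.88, and without propranolol replicate 2 they were -0.77 and -1.74.

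The other receptor genes were read in the same way. Trac, the alpha constant gene at chr14:54220521-54224206, was at 20.8 and 20.7 CPM with vehicle and at 11.6 and 6.61 CPM with propranolol, with a log2 fold change of -1.15 ± 0.24 (SE) and an adjusted p of 0.00349 by the edgeR test. Trac, Trbc1 and Trbc2 had the most counts of the 226 receptor genes in the table, of which 14 could be tested. Variable segments are joined to the constant regions by recombination and differ from clone to clone. Of the 144 variable genes, 83 had a count in any library, and together they amounted to 19.7 and 21.2 CPM with vehicle and to 9.65 and 6.16 CPM with propranolol. Beta variable genes summed to 11.0 and 11.0 CPM with vehicle and to 5.20 and 3.21 CPM with propranolol, and alpha variable genes to 5.06 and 6.78 CPM against 3.38 and 2.55 CPM. Both sums were lower in both propranolol libraries. Gamma variable genes, used by gamma delta T cells, summed to 2.97 and 2.99 CPM with vehicle and to 0.715 and 0.262 CPM with propranolol. The number of variable genes with a count was 56 in each vehicle library, and 53 and 28 in the propranolol libraries. These numbers depend on depth, which was highest in propranolol replicate 1. Propranolol replicate 2, with 28, had more total counts than vehicle replicate 1, with 56 (16424081 against 13798249).

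CD8 is a dimer of the alpha chain with another alpha chain or with the beta chain, and the genes of both chains are neighbours on chromosome 6, Cd8a at chr6:71373427-71379173 and Cd8b1 at chr6:71322788-71337494. Cd8a was measured at 71.0 and 86.8 CPM in the vehicle libraries and at 29.4 and 13.4 CPM in the propranolol libraries. Cd8b1 was at 23.4 and 27.0 CPM with vehicle and at 9.52 and 3.73 CPM with propranolol. The groups did not overlap for either chain, and propranolol replicate 2 was again the lowest library. By the edgeR test with Benjamini-Hochberg adjustment, the log2 fold change was -1.84 ± 0.27 (SE) for Cd8a, with an adjusted p of 0.000677, and -1.86 ± 0.32 for Cd8b1, with an adjusted p of 0.00133. Cd8b1 took 24.8% and 23.7% of the CD8 counts with vehicle and 24.4% and 21.8% with propranolol. The log2 ratio of Cd8a to Cd8b1 differed by 0.09 between the groups, within the spread of the libraries (exact permutation p = 0.667, two-sided). After the GC correction it differed by 0.37, at 1.44 and 1.56 with vehicle and 1.75 and 1.99 with propranolol, and the groups did not overlap. The beta chain is characteristic of conventional CD8 T cells, whereas the alpha chain alone occurs on some dendritic cells. Without propranolol replicate 1, the log2 fold changes of Cd8a and Cd8b1 were -2.56 and -2.75, and without propranolol replicate 2 they were -1.39 and -1.38.

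Cd4, at chr6:124864692-124888221, was the exception among the members. It was measured at 13.2 and 13.4 CPM with vehicle and at 16.3 and 17.0 CPM with propranolol, so that both propranolol libraries were slightly above both vehicle libraries. The log2 fold change was 0.32 ± 0.16 (SE), which did not pass the edgeR test (adjusted p = 0.138). It ran from 0.32 to 0.36 when each library was left out in turn. Replicates of a group lay close together for Cd4, at 10.7 and 11.2 TPM with vehicle and at 11.1 and 12.1 TPM with propranolol, although propranolol replicate 2 had less of each other member than propranolol replicate 1.

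**Figure D2:**
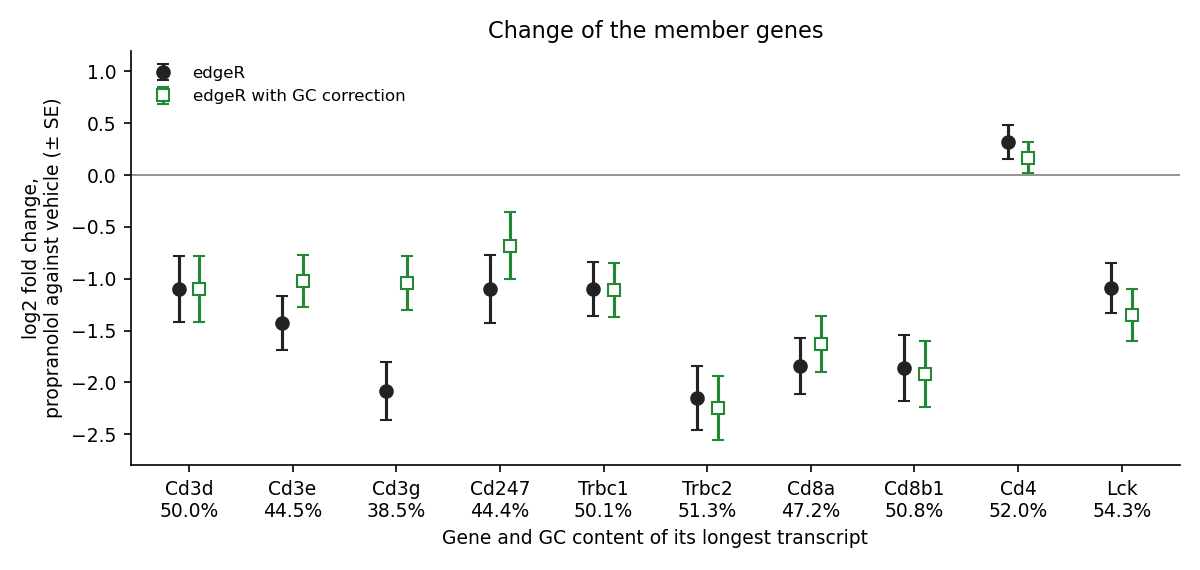
Log2 fold change of each gene between propranolol and vehicle with its standard error, from the edgeR test (filled circles) and from the same test after correction for GC content (open squares), with the GC content under each name. Cd3g moved from -2.08 to -1.04 and Cd247 from -1.10 to -0.68, Trbc2 was the lowest in both fits, and Cd4 stayed above 0.

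The coreceptors were compared with each other and with the CD3 chains within each library, which removes differences of depth. The log2 ratio of Cd8a to Cd4, on the CPM scale, was 2.42 and 2.69 with vehicle against 0.86 and -0.34 with propranolol, a change of -2.30. Cd8a made up 84.3% (exact 95% interval 82.2 to 86.3) and 86.6% (85.2 to 87.9) of the counts of Cd8a and Cd4 with vehicle, and 64.4% (62.1 to 66.7) and 44.1% (39.5 to 48.7) with propranolol. The groups did not overlap in this ratio, and the 2 propranolol libraries differed from each other by more than the 2 vehicle libraries did. Per length, Cd8a was above Cd4 in 3 of the 4 libraries. It was at 63.9 and 80.4 TPM with vehicle, 22.3 TPM in propranolol replicate 1 and 10.5 TPM in propranolol replicate 2, where Cd4 was at 12.1 TPM.

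Relative to the CD3 chains, the coreceptors parted in opposite directions. The log2 ratio of Cd4 to the mean of Cd3d, Cd3e and Cd3g was -0.89 and -1.21 with vehicle and 0.36 and 1.52 with propranolol, a change of 1.99. For the CD8 chains against the CD3 chains the log2 ratio was 0.73 and 0.64 with vehicle and 0.40 and 0.26 with propranolol, a change of -0.36. The CD8 chains thus were lower by more than the mean of the CD3 chains, although Cd3g alone, at -2.08, had a lower log2 fold change than either CD8 chain. After the GC correction Cd3g was at -1.04, above Cd8a at -1.63 and Cd8b1 at -1.92. Each of the 3 ratios separated the groups, with an exact permutation p of 0.33 (two-sided), and a smaller p cannot be reached with 4 libraries. When each library was left out in turn, the change ran from -2.90 to -1.70 for Cd8a to Cd4. It ran from -0.42 to -0.29 for CD8 to CD3 and from 1.41 to 2.57 for Cd4 to CD3. The extremes of all 3 ratios were those without propranolol replicate 1 or 2. With the GC correction the changes were -1.94, -0.77 and 1.35.

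**Figure D3:**
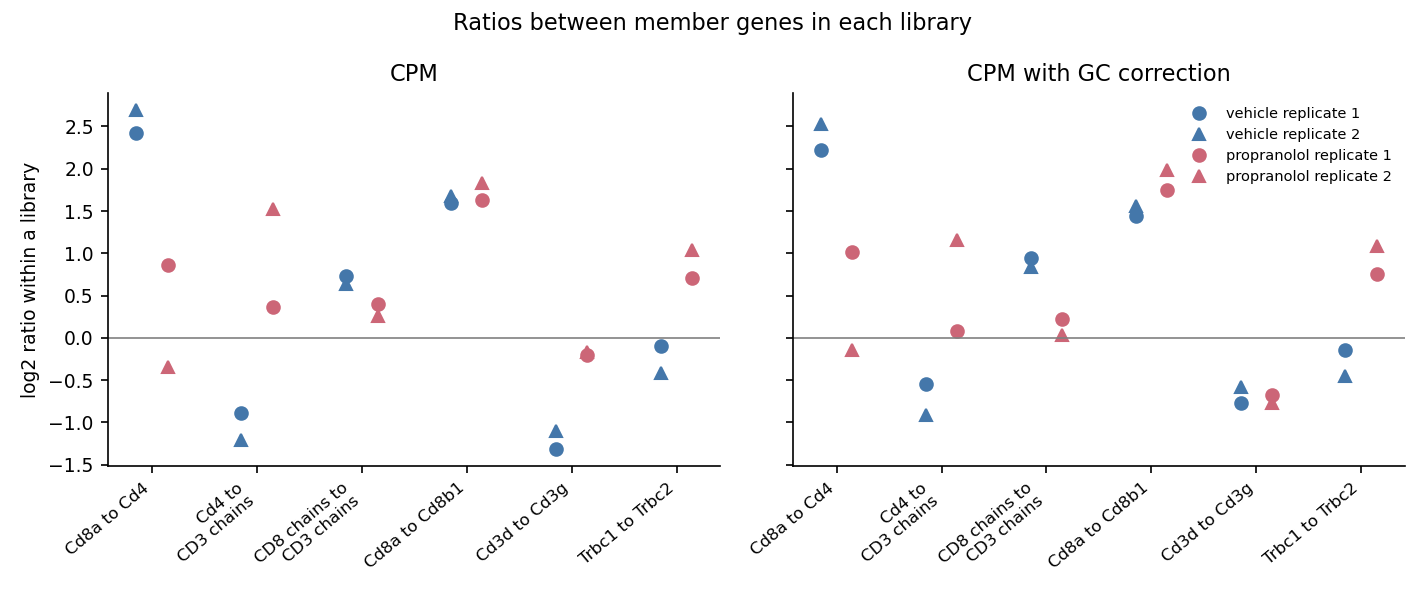
Log2 ratios between members within each library, from CPM (left) and from CPM after GC correction (right), with circles for replicate 1 and triangles for replicate 2. Cd8a to Cd4 is lower and Cd4 to the CD3 chains higher in both propranolol libraries on either scale, whereas Cd3d to Cd3g separates the groups only without the correction.

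Lck, the kinase that starts receptor signalling, lies at chr4:129548344-129573641. It was measured at 43.1 and 46.9 CPM with vehicle and at 27.4 and 13.9 CPM with propranolol. Both propranolol libraries were lower, and the log2 fold change of -1.09 ± 0.24 (SE) passed the edgeR test with an adjusted p of 0.00526. Leaving out propranolol replicate 1 moved it to -1.69 and leaving out propranolol replicate 2 to -0.69. Of the 10 genes Lck has the highest GC content, and with the GC correction its log2 fold change was -1.35 (adjusted p = 0.00553).

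The order of the levels per length differed between the groups. With vehicle, Cd8a (72.1 ± 11.7 TPM) and Trbc2 (69.9 ± 10.9 TPM) were the highest, followed by Cd8b1 (56.5 ± 6.89 TPM), Trbc1 (53.9 ± 0.0287 TPM) and Lck (51.0 ± 4.08 TPM), all as mean and SD of 2 libraries. The CD3 chains came next with Cd3g at 36.9 ± 6.86, Cd3e at 30.5 ± 2.58 and Cd3d at 29.1 ± 8.32 TPM, and Cd4 (11.0 ± 0.350 TPM) and Cd247 (5.49 ± 1.26 TPM) were the lowest. The libraries of Cd8a and Trbc2 overlapped, as did those of Cd8b1 and Trbc1 and those of the 3 CD3 chains. Cd4 was separated from its neighbours on both sides. With propranolol, Trbc1 (20.7 ± 7.19 TPM) and Lck (19.7 ± 8.61 TPM) led, then Cd8a (16.4 ± 8.33 TPM), Trbc2 (12.6 ± 6.26 TPM) and Cd8b1 (12.5 ± 7.41 TPM). Cd4 at 11.6 ± 0.675 TPM now stood above Cd3d (11.1 ± 5.46 TPM), Cd3e (9.21 ± 4.49 TPM) and Cd3g (7.05 ± 3.55 TPM), and Cd247 was last at 2.09 ± 0.966 TPM. Every neighbouring pair overlapped in this order except Cd3g and Cd247.

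Fold changes in these libraries varied with the GC content of the transcripts. The tenth of tested genes with the lowest GC content, which holds Cd3g, had a median of -0.94 on the log2 scale, and the groups of genes that hold Cd4 and Lck had medians of 0.27 and 0.37. Against the median of the genes of like GC content, the log2 fold change of Trbc2 stood at -2.28, that of Cd8b1 at -1.98, that of Cd8a at -1.68 and that of Lck at -1.47. Cd3d and Trbc1 stood at -1.22 against that median, Cd3g at -1.13, Cd3e at -1.10 and Cd247 at -0.77, and Cd4 at 0.05. With the GC trend of each library removed, 8 of the 10 genes were still lower by the edgeR test, among 4.99% of all tested genes, the exception besides Cd4 being Cd247. The correction moved the median of all tested genes from -0.02 to 0.09 and that of the 10 genes from -1.27 to -1.10. The part of the GC trend in the results was not tested beyond this correction.

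**Figure D4:**
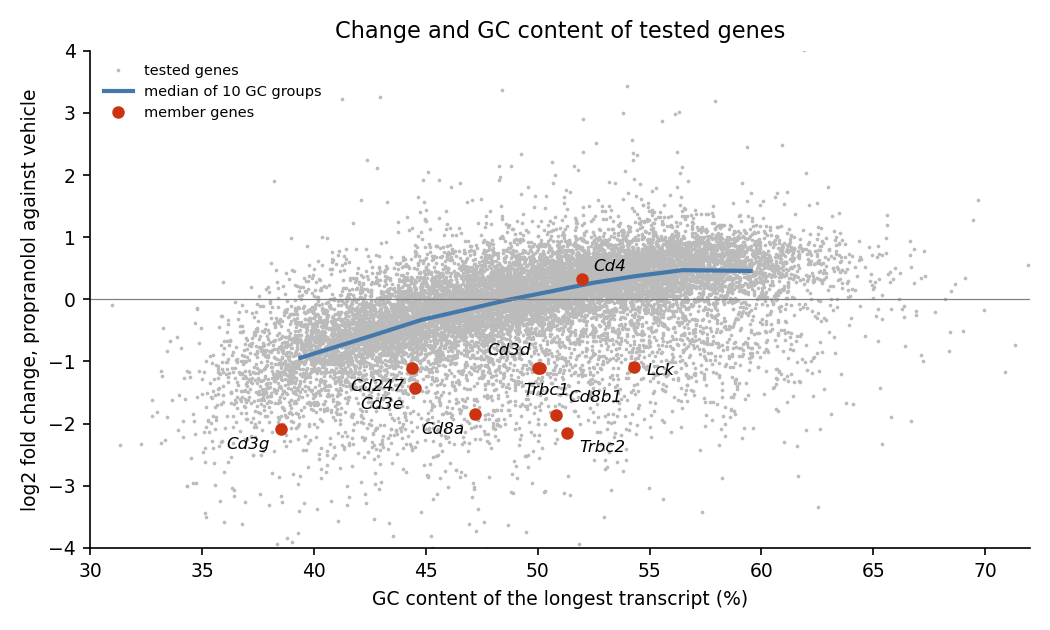
Log2 fold change between propranolol and vehicle against the GC content of the longest transcript, for 14652 tested genes (grey; 29 genes lie outside the axes), with the median of 10 groups of equal size (line) and the 10 members (red). Cd4 lies on the median of its group, and the other members lie below theirs.

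Beyond the members, genes of receptor signalling were counted in fixed lists. Of 20 genes restricted largely to T cells and other lymphocytes, 19 could be tested, and 13 were lower and 0 higher, with a median log2 fold change of -0.98. By the rule of highest expression, the genes named are Rhoh, Grap2, Rasgrp1 and Zap70. Zap70, the kinase that docks on the phosphorylated CD3 chains, was at 24.8 and 29.4 CPM with vehicle and at 17.2 and 11.9 CPM with propranolol, and fell by 0.88 on the log2 scale (adjusted p = 0.00427, edgeR). Grap2, an adaptor that links LAT to SLP-76, fell by 0.68 (adjusted p = 0.00848). Rasgrp1, which activates Ras downstream of the receptor, had a log2 fold change of -0.53, and Rhoh, a GTPase gene active in many blood cells, one of 0.49, neither exceeding 1.5-fold. Trat1 had too few counts. With the GC correction, 13 genes were lower and 1 higher, of which 11 were lower in both fits, and the gene higher was Rhoh.

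The signalling genes that T cells share with myeloid cells formed another list. Of its 14 genes, all tested, 4 were lower and 1 was higher, with a median log2 fold change of -0.32. Ptprc, which encodes CD45, the protein used for the bead enrichment, was the most abundant at 754 and 780 CPM with vehicle and 479 and 442 CPM with propranolol, and fell by 0.74 (adjusted p = 0.000301, edgeR). With the GC correction its log2 fold change was 0.20 and did not pass. Csk, the kinase that inhibits Lck, rose by 0.62 (adjusted p = 0.000638), and was no longer past the 1.5-fold limit after GC correction at 0.30. The phosphatase gene Ptpn6 (0.35) and the exchange factor gene Vav1 (0.58) stayed under 1.5-fold. The counts of the list after the GC correction were also 4 lower and 1 higher, with a median of -0.12, and 3 genes were lower in both fits. Malt1 turned from -0.44 to 0.97 and was the gene called higher, while Plcg1 went from -0.36, not called, to -0.62, called lower.

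Genes of the lineages that CD8 and CD4 mark were read beside the coreceptors. Of 12 genes of the CD8 lineage and of cytotoxic cells, 10 were lower and 0 higher in either fit, with a median of -1.49, or -1.39 with the GC correction. NK cells share many of these genes. Gzmb, which encodes granzyme B, was at 106 and 104 CPM with vehicle and at 52.9 and 26.7 CPM with propranolol, and fell by 1.38 on the log2 scale (adjusted p = 0.00143, edgeR), and Prf1, encoding perforin, fell by 1.22 (adjusted p = 0.00306). Runx3, the factor that silences Cd4 in CD8 T cells and that myeloid cells also express, had a log2 fold change of 0.37, and the chemokine gene Ccl5 one of -0.11. Both were under 1.5-fold.

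Of 12 genes of the CD4 lineage and of regulatory T cells, 10 were tested, and 4 were lower and 0 higher. The median was -0.18, or -0.43 with the GC correction. Zbtb7b, which encodes the CD4 lineage factor ThPOK, was at 127 and 128 CPM with vehicle and 179 and 193 CPM with propranolol, a log2 fold change of 0.55, and is expressed outside T cells as well. Foxp3, Ctla4 and Icos were named after their values were seen. Foxp3, the factor of regulatory T cells, was at 5.26 and 6.86 CPM with vehicle and at 6.38 and 7.73 CPM with propranolol, so that the groups overlapped (log2 fold change 0.20 ± 0.25, adjusted p = 0.554 by edgeR). Corrected for GC content, the log2 fold change was -0.09 for Foxp3 and 0.22 for Zbtb7b, and neither was called. The log2 ratio of Foxp3 to Cd4 differed by -0.09 between the groups (exact permutation p = 0.667, two-sided), whereas that of Foxp3 to the CD3 chains was -2.21 and -2.18 with vehicle and -0.99 and 0.39 with propranolol. After the GC correction the latter ratio was -1.80 in each vehicle library and -1.32 and -0.06 in the propranolol libraries, a smaller change of 1.11. The log2 fold change was -1.41 for Ikzf2, which encodes Helios (adjusted p = 0.000414), and -1.08 for Il2ra, the gene of CD25 (adjusted p = 0.00322). Ctla4 fell by 1.10 and Icos fell by 1.73, while Tnfrsf18, the gene of GITR, had a log2 fold change of -0.11. With the GC correction the count of lower genes went from 4 to 2, Il2ra and Icos. Cd40lg had under 1 CPM in each library and Il21 had 0 counts in all 4.

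T cell transcription factors and cytokine receptors were mostly lower. Of 12, 9 were lower and 0 higher, with a median of -1.13, and 8 were lower with the GC correction. Il2rb, a receptor chain for IL-2 and IL-15, was at 165 and 186 CPM with vehicle and at 94.7 and 50.2 CPM with propranolol, and fell by 1.26 (adjusted p = 0.00176, edgeR). The log2 fold change was -1.21 for the surface marker gene Thy1, -1.15 for the factor gene Ets1 and -1.02 for Il7r, the last being -0.22 with the GC correction, where it did not pass. Genes of gamma delta T cells were sparse. Of 14 symbols, 10 were in the table and 5 could be tested with Trac among them, and 3 were lower, namely Trac, the gamma constant gene Tcrg-C2 (6.68 and 7.14 CPM with vehicle, 2.56 and 1.24 CPM with propranolol) and the delta constant gene Trdc (1.69 and 2.15 CPM, 0.468 and 0.393 CPM). Tcrg-C4 had 0 counts in propranolol replicate 2 and did not pass.

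**Figure D5:**
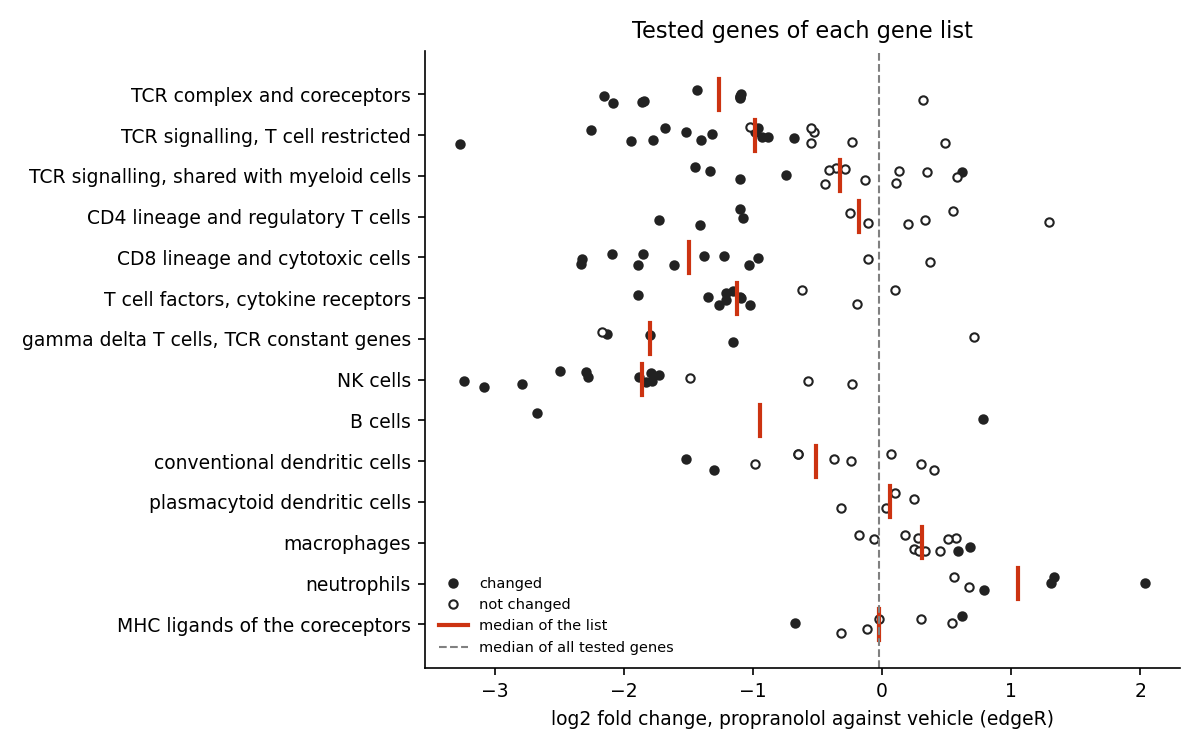
Log2 fold change between propranolol and vehicle of the tested genes of each list (filled, changed by the edgeR test; open, not changed), with the list median in red and the median of all tested genes as a dashed line. The lists of T cell, cytotoxic and NK cell genes lie mostly below 0, macrophage markers spread around 0.31, and neutrophil genes lie above 0.

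Markers of other cell types that the sort could hold also changed, and their part in the results above was not tested. Of 14 NK cell genes, all tested, 11 were lower and 0 higher, with a median of -1.85, and the list summed to 188 and 188 CPM with vehicle and to 90.8 and 72.2 CPM with propranolol. NK cells lack CD3 at the surface and express Cd247, Lck, Il2rb and the cytotoxic genes. Cd244a, the most abundant of the list, had a log2 fold change of -0.23 and Sh2d1b1 one of -0.57, neither called, while Klrk1 fell by 1.88 on the log2 scale and Klrd1 had a log2 fold change of -3.24 (adjusted p = 0.000127, edgeR). Klrk1, whose GC content is 32.7%, was at -0.05 and not called after the GC correction, and Klrd1 was at -1.86. Ncr1, the defining receptor gene of NK cells, was at 6.20 and 6.42 CPM with vehicle and at 2.75 and 0.786 CPM with propranolol. Its log2 ratio to the CD3 chains differed by -0.40 between the groups, within the spread of the libraries (exact permutation p = 0.667, two-sided). The NK list is poor in GC, with a median of 40.4%, and with the GC correction 4 of its genes were lower. Without propranolol replicate 2, 7 were lower.

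B cell, dendritic cell and neutrophil genes showed other patterns. Of the B cell genes, Cd79b was at 8.70 and 11.8 CPM with vehicle and at 19.4 and 16.0 CPM with propranolol and rose by 0.78 (adjusted p = 0.0110, edgeR), a call lost with the GC correction at 0.52, while Ms4a1 fell by 2.67 at low counts, a call that was lost when any library was left out. Cd79a and Cr2 had too few counts to be tested. Cd79a had 1 and 5 counts with vehicle and 11 and 21 with propranolol. Cr2 had 10 and 3 counts with vehicle and 0 in both propranolol libraries. The list of 8 genes, mostly Cd79b, summed to 11.0 and 13.8 CPM with vehicle and to 20.4 and 20.5 CPM with propranolol. Of 10 genes of conventional dendritic cells, some of which carry CD8 alpha in mice, 3 were lower and 0 higher, with Irf8 the most abundant at 411 and 426 CPM with vehicle and 529 and 501 CPM with propranolol. The other abundant genes of the list had log2 fold changes of 0.40 (Wdfy4), -0.37 (Cadm1) and -0.65 (Fscn1), of which only Fscn1 was called. Corrected for GC content, these were 0.13, 0.11 and -0.96, and again only Fscn1 was called. Batf3 and Zbtb46 were at 0.07 and -0.24 and not called. Clec9a and Xcr1, markers of the dendritic cells that can carry CD8 alpha, had log2 fold changes of -1.52 (adjusted p = 0.00656, edgeR) and -1.30 (adjusted p = 0.0125). Clec9a was still called after the GC correction, at -1.08, and Xcr1, at -0.67, was not. None of 4 tested genes of plasmacytoid dendritic cells, a cell type that carries CD4 in mice, was called by the edgeR test. Tcf4, the most abundant, had a log2 fold change of -0.32. Ccr9 was at 0.10 ± 0.63 (SE), Spib at 0.03 ± 0.69 and Siglech at 0.25 ± 0.86. These last genes had mean levels of only 0.561, 0.769 and 0.405 CPM, so a change of theirs could easily be missed. The GC correction turned Tcf4 to 0.45 and took the median of this list from 0.07 to 0.51, and none was called. Of 6 tested neutrophil genes, 4 were higher and 0 lower. Csf3r, the most abundant, had a log2 fold change of 0.56 and was not called, while S100a9 (2.04, adjusted p = 6.05e-05, edgeR), S100a8 (1.33) and Retnlg (0.79) were called higher, and Ly6g had 0 counts in vehicle replicate 1.

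Macrophage markers did not share the loss. Of 12, 0 were lower and 2 were higher, with a median of 0.31, beside 15.6% lower and 12.2% higher of all tested genes. The genes named by expression, Lyz2 (log2 fold change 0.28), C1qa (-0.18), C1qb (0.51) and C1qc (0.25), did not change by more than 1.5-fold, and the 2 called higher were Csf1r (0.59) and Cd14 (0.68). Neither was called with the GC correction, at 0.32 and 0.50, and Mrc1 was (0.85). The sorting antigen genes Itgam, for CD11b, and Adgre1, for F4/80, had log2 fold changes of -0.06 and 0.18. Genes of the MHC ligands of the coreceptors, by contrast with the coreceptors, were abundant throughout. Their list also held Cd74, which encodes the MHC class II invariant chain and not a ligand. Cd74 was at 8998 and 9568 CPM with vehicle and at 9407 and 8910 CPM with propranolol. The class II genes H2-Ab1 (0.30) and H2-Eb1 (-0.12) stayed under 1.5-fold. Of the 7 genes of this list, H2-D1 rose by 0.62 and B2m fell by 0.67, beside 12.2% higher and 15.6% lower of all tested genes. Neither was called with the GC correction, nor was B2m without vehicle replicate 1 or propranolol replicate 2.

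The genes whose profile over the 4 libraries was most like the mean of Cd3d, Cd3e and Cd3g were sought among all tested genes outside the members by the root mean square difference of centred log2 CPM. They were Ppp2r2c (0.0327), Sla2 (0.0535), Ikzf3 (0.0767), Klrb1b (0.0848), Skap1 (0.0872), 6720489N17Rik (0.0892), Mctp2 (0.0923) and Lta (0.0964). Ikzf3, which encodes the lymphocyte factor Aiolos, was at 25.2 and 29.4 CPM with vehicle and at 11.2 and 5.76 CPM with propranolol. Skap1 and Sla2 encode adaptors of receptor signalling. On the same measure the CD3 chains, which make up the mean, lay at 0.0883 (Cd3e), 0.242 (Cd3d) and 0.279 (Cd3g) from it, Cd8a at 0.157 and Cd4 at 1.08. There were 21 tested genes outside the members nearer to the mean than Cd8a, 106 nearer than Cd3d, 174 nearer than Cd3g and 9590 nearer than Cd4. The likeness rests on 4 libraries in 2 groups and is given as a description.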

How the data were processed

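RNA of sorted TAMs was measured in 4 libraries, 2 per group as labelled. The values are counts per gene that the authors deposited without normalization. According to the methods and the submitters' processing notes, reads were aligned to mm10 with STAR 2.7.1a, alignments of high mapping quality were kept with SAMtools 1.9, and exons were counted with featureCounts 1.6.4 on a GENCODE annotation whose release is not given in the sources used here. No strand option is stated, so overlapping and antisense genes cannot be told apart. Of the 54146 genes listed, 54079 matched GENCODE M21 by identifier, which gave symbols, positions, GC content of the longest transcript and exon length. TPM were computed from these lengths.

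Counts were tested with edgeR 4.0.16 (quasi-likelihood, TMM factors of 1.08, 1.09, 0.914 and 0.931, filterByExpr at a minimum count of 10, Benjamini-Hochberg adjustment over 14688 genes) in R 4.3.3. Ratios were compared by exact permutation over the libraries, with 0.5 counts added, and shares have Clopper-Pearson intervals. For the GC correction, each library's trend of log2 CPM on GC content was fitted by a natural spline (5 degrees of freedom) and taken out through offsets. Alternatives were DESeq2 1.42.0, its size factors, limma-voom with limma 3.58.1, other filters and thresholds, a replicate block and leaving out each library, where the spread of the lone library was taken from the other group. The steps were tested on simulated data. The p-values measure the spread between these libraries, and low counts limit the precision of the rarer genes.

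The members and gene lists were chosen with earlier results of these data known. All members were named, with the 4 genes of highest mean CPM of each list, defining markers at 0, the 8 genes nearest to the CD3 chains and the 3 receptor genes with the most counts. Of the genes that fall under this rule, 1 is not reported here. Ncr1, Clec9a, Xcr1, Batf3, Zbtb46, Csf1r, Cd14, Mrc1, B2m, Itgam, Adgre1, Malt1 and Plcg1 lie outside the rule and were named after their values were seen. Flow cytometry and in vitro experiments of the study were not analysed here.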

Additional observations from a re-analysis of the deposited data

How the results depend on the processing

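Of 120 alternative results for the 10 genes, 117 kept their direction and their side of the threshold and 0 reversed. The 3 that did not were for Cd247, at -0.69 without propranolol replicate 2, -0.68 with the GC correction and -0.72 with the GC correction and the replicate block, and the cause was not tested. The number of members changed was 9, or 8 with the GC correction, and 4 at an absolute log2 fold change above 1.5. Leaving out each library in turn gave 8 to 9 changed members, a median log2 fold change of -1.96 to -0.89 and 3615 to 4329 changed genes. The number of changed genes was 4084. It was 1855 with the GC correction, 2128 with the GC correction and the replicate block, 728 at an absolute log2 fold change above 1.5 and 6204 with no fold threshold. The summed level of the members in the vehicle libraries was 288 CPM, and 229 CPM without Cd4 and Lck, which are part of that sum. In the propranolol libraries it was 107 CPM, and 69.6 CPM without them. With the replicate number as a block, 9 members and 4362 genes changed and the median of the members was -1.34. The deviations of same-numbered libraries from their group means correlated at 0.169 across genes, and with 2 pairs the numbers were not taken to pair the libraries. The block also took the lower genes of conventional dendritic cells from 3 to 5. Propranolol replicate 2 and vehicle replicate 1 had the lowest depth.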
